A study of Mus musculus with 48 samples.

Results

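Ribosome biogenesis and nucleolar factors were described here in murine striatal progenitor cells, as a set of 39 gene names. The names were chosen on the responses of these same samples, and which of the comparisons the choice rested on is not recorded. Every level, difference and count of the members is therefore a description and no test of them. A row of the deposited table with exactly that name was found for 38 of the 39, out of 18178 rows with a gene symbol, and all 38 were among the 13409 genes that were tested. The exception was Fbl, fibrillarin, whose row carries a joint name with a second locus and is given apart.

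The study treated STHdhQ111 cells, which carry polyglutamine-expanded huntingtin, with 14 compounds that protect them from serum deprivation, and sought their modes of action from several kinds of molecular profiles, of which RNA is one. RNA-Seq was performed after 24 hours in serum-free medium in 16 conditions of 3 samples each, 48 in all. STHdhQ111 cells received vehicle (DMSO), meclizine, cyproheptadine, loxapine, selisistat or diacylglycerol kinase inhibitor II (DKI) at 10 μM, pizotifen at 5 μM, cysteamine at 250 μM, sodium butyrate at 1 mM, 4-deoxypyridoxine at 4 mM, fingolimod phosphate at 250 nM, trichostatin A at 10 nM, nortriptyline at 1 nM, or nicotinamide or haloperidol at 0.5 nM. Each compound was brought into solution with DMSO or water, so some compounds may differ from the vehicle control in solvent as well. STHdhQ7 cells, which carry wild-type huntingtin, received vehicle only. Both are conditionally immortalized lines, and each genotype is represented by 1 line, so a difference between them cannot be told apart from a difference between lines. The 3 samples of a condition were collected in 3 different slots of day and time, and nothing says further how the cultures were kept apart, so the errors measure only the spread between these samples.

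The ribosome is assembled in the nucleolus. RNA polymerase I transcribes a long precursor of the ribosomal RNAs, small nucleolar ribonucleoproteins (snoRNPs) modify it, and large assemblies cut and fold it into a small and a large subunit. Growing cells spend much of their transcription on this pathway, and its genes are known to be driven by the transcription factor MYC. By role, 14 members act in the small subunit processome, the assembly that forms on the precursor and releases the small subunit. A further 12 members act on the large subunit, 6 are core proteins of the snoRNPs, and 6 are subunits of RNA polymerase I or nucleolar scaffold proteins.

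Values are the normalized abundances of the deposited table on a log2 scale. Members had means over all samples between 7.78 and 13.22, and the median residual SD between samples of a condition was 0.088, beside 0.086 for all genes tested. Differences are log2 differences from a linear model over all samples (limma) with the collection day as a term, given with the standard error (SE), and a gene is called where its p-value adjusted over all genes tested (Benjamini-Hochberg) is below 0.05. All comparisons with the vehicle control share the same 3 control samples. In bulk samples, fewer cells of a type and less RNA per cell cannot be told apart.

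The lines were checked against marker genes. Vim, a progenitor and mesenchymal marker, lay at or above 14.79 in every sample, whereas Nes and Sox2, the defining neural progenitor markers, averaged 10.95 ± 0.91 and 8.91 ± 0.47 (SD, n = 3) in STHdhQ7 cells but 4.96 ± 0.24 and 4.81 ± 0.022 (SD, n = 3) in the STHdhQ111 vehicle control. Replicate 2 of haloperidol stood apart from the other treated samples with Nes at 7.14 and Sox2 at 5.92, and the haloperidol comparison had 0 members called with and without it. The neuronal genes Rbfox3, Snap25 and Syt1, the astrocyte gene Gfap and the microglial genes Aif1, Cx3cr1 and P2ry12 lay below the minimum for testing. Other genes on the same lists did not, with means of 8.37 for Map2, 4.72 for Tubb3, 7.11 for the astrocyte transporter Slc1a3 and 2.01 for Csf1r. Ptprc, the leukocyte surface protein CD45, averaged 10.59 ± 0.15 in the vehicle control and 7.86 ± 0.49 in STHdhQ7 cells (SD, n = 3). The fibroblast genes Col1a1 and Col1a2 averaged 14.52 and 12.70. Of the fibroblast list, 4 of 5 genes passed the minimum, Lum being the exception. Its summed level ranged over 14.96 to 15.16 in the vehicle control, 14.14 to 14.38 in DKI, 14.53 to 14.59 in meclizine, 14.50 to 14.66 in cyproheptadine, 14.89 to 15.06 in loxapine and 14.74 to 14.88 in pizotifen. It was thus below the control range in 4 of these compounds, as it was in STHdhQ7 cells (14.42 to 14.93), and above it in sodium butyrate (15.26 to 15.42). The fibroblast sum follows Col1a1 most, since Col1a2 and, with means of 8.94 and 7.44, Pdgfra and Dcn lay lower. All 5 genes of the neural progenitor list passed the minimum. Its summed level was below the control range of 15.38 to 15.51 in DKI (14.79 to 15.05), meclizine (15.16 to 15.23) and cyproheptadine (15.11 to 15.19). It was also below it in trichostatin A (15.18 to 15.28). It was above the range in STHdhQ7 cells, 4-deoxypyridoxine, nicotinamide, nortriptyline and cysteamine. This sum follows Vim almost alone, with a mean of 15.42 beside 5.51 for Nes, 5.11 for Sox2, 4.40 for Msi1 and 3.06 for Pax6. The part of these lists in the results was not tested.

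Sequence and position were not used to choose the members. The promoters of some members that lead the comparisons are shown first, as windows of 250 bases before to 50 bases after the RefSeq start in GRCm38.p6, 5′ to 3′ on the strand of the gene. Capitals mark the letters CACGTG, the palindromic E-box that MYC and MAX are known to bind, and CCGGAA or its reverse complement TTCCGG, the core of sites for ETS factors, which overlap each other only as TTCCGGAA and never overlap CACGTG.
Utp20 (chr10:88826765-88827064, minus strand): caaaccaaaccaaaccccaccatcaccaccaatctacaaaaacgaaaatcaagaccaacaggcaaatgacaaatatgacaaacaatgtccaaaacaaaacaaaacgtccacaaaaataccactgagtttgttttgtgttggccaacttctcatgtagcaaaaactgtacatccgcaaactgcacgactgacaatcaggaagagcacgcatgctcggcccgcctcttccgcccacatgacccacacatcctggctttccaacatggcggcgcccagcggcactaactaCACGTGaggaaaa
Wdr43 (chr17:71615965-71616264, plus strand): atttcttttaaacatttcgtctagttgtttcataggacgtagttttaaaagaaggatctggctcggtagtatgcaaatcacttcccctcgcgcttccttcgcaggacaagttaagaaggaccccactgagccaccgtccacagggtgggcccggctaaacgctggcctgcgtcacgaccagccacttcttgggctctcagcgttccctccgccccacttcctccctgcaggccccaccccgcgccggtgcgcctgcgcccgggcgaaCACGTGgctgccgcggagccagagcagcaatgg
Nhp2 (chr11:51619523-51619822, plus strand): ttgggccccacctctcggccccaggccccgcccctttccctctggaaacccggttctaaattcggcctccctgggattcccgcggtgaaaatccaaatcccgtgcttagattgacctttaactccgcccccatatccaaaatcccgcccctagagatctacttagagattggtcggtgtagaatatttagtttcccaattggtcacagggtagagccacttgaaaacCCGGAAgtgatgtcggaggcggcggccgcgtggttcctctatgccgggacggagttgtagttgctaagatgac
Heatr1 (chr13:12395125-12395424, plus strand): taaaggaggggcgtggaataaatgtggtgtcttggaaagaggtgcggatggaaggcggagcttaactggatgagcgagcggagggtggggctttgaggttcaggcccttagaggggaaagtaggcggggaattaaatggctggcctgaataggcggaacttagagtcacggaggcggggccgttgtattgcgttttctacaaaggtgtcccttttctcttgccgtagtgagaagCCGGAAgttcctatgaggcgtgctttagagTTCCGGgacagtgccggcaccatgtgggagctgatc
Ncl (chr1:86359406-86359705, minus strand): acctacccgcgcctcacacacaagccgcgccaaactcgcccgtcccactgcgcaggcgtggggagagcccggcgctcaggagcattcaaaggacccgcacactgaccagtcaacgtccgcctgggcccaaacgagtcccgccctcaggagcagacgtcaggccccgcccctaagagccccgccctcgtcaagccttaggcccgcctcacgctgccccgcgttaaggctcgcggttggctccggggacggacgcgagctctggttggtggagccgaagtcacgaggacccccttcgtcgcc
Utp20 and Wdr43 held CACGTG just after the start, Nhp2 held CCGGAA before it, Heatr1 held both CCGGAA and TTCCGG, and the Ncl window held none of them. Windows of other leading members, such as Nop56, Nop10, Nip7, Gar1 and Nolc1, are not shown and hold no CACGTG. No window was available for Rrp12 and Npm1.

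A promoter was available for 33 of the members, 38 windows in all. CACGTG was found for 5 of the 33 genes (Nop2, Pes1, Utp18, Utp20 and Wdr43), in 13.2% of the members' windows, beside 7.15% of all 32851 windows and 9.61% of the 12894 windows of genes tested. CCGGAA or TTCCGG was found for 15 of the 33 genes, in 42.1% of the members' windows, beside 14.9% of all windows and 26.0% of those of genes tested. The median GC content of the members' windows was 58.0%, beside 52.7% for all. These shares describe letters in a window and not binding.

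In the GENCODE annotation of GRCm38, the members lie on 17 chromosomes. Annotated snoRNAs lie inside 5 members on the same strand, namely Dkc1, Ncl, Nop56, Nop58 and Wdr43, with 16 snoRNAs between them. That is 13.2% of the members, beside 2.01% of the genes tested. SnoRNAs guide the modification of ribosomal RNA, and the values given here measure the host transcripts and not the snoRNAs. Exons of 14 members overlap an annotated gene on the opposite strand, and the strand setting of the counting is not given in the sources used here. For 5 members (Ddx21, Nop56, Npm1, Pes1 and Wdr12), a stretch of at least 200 bases is at least 95% identical to a transcript of another gene. Among the matches are 4 pseudogenes each for Npm1 and Nop56. Those of Wdr12 are 6 genes, only 1 of them a pseudogene, and include Cxcr2 and Tmod3, so they are not copies of Wdr12. Reads of these 5 members may have been shared.

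The range of the 16 condition means had a median of 0.81 over the members and of 0.46 over all genes tested. Rrp12, a small subunit maturation factor, had the widest range, 1.33 between sodium butyrate and DKI, followed by Utp20 with 1.28. Rrp1, a large subunit factor and paralogue of Rrp1b, had the narrowest, 0.25. Of the 38 members, 34 were highest in DKI, and 15 were lowest in sodium butyrate, 10 in 4-deoxypyridoxine and 5 in STHdhQ7 cells. The conditions in which all genes tested were highest or lowest were not counted, so these counts have no background beside them.

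Averaged over the 38 members, the difference from the vehicle mean was 0.55 ± 0.11 in DKI, 0.32 ± 0.031 in meclizine, 0.31 ± 0.033 in cyproheptadine, 0.19 ± 0.029 in loxapine, 0.18 ± 0.046 in pizotifen and 0.14 ± 0.10 in STHdhQ7 cells (SD, n = 3). The order of neighbours was not settled within their spread for meclizine and cyproheptadine, for loxapine and pizotifen, or for STHdhQ7 cells and either of the latter. At the other end it was -0.10 ± 0.015 in 4-deoxypyridoxine and -0.11 ± 0.033 in sodium butyrate. The 3 vehicle samples lay between -0.0035 and 0.0024 in this average, whereas trichostatin A ranged from -0.13 to 0.11 and selisistat from -0.063 to 0.12, with replicate 2 the highest in each.

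**Figure D1:**
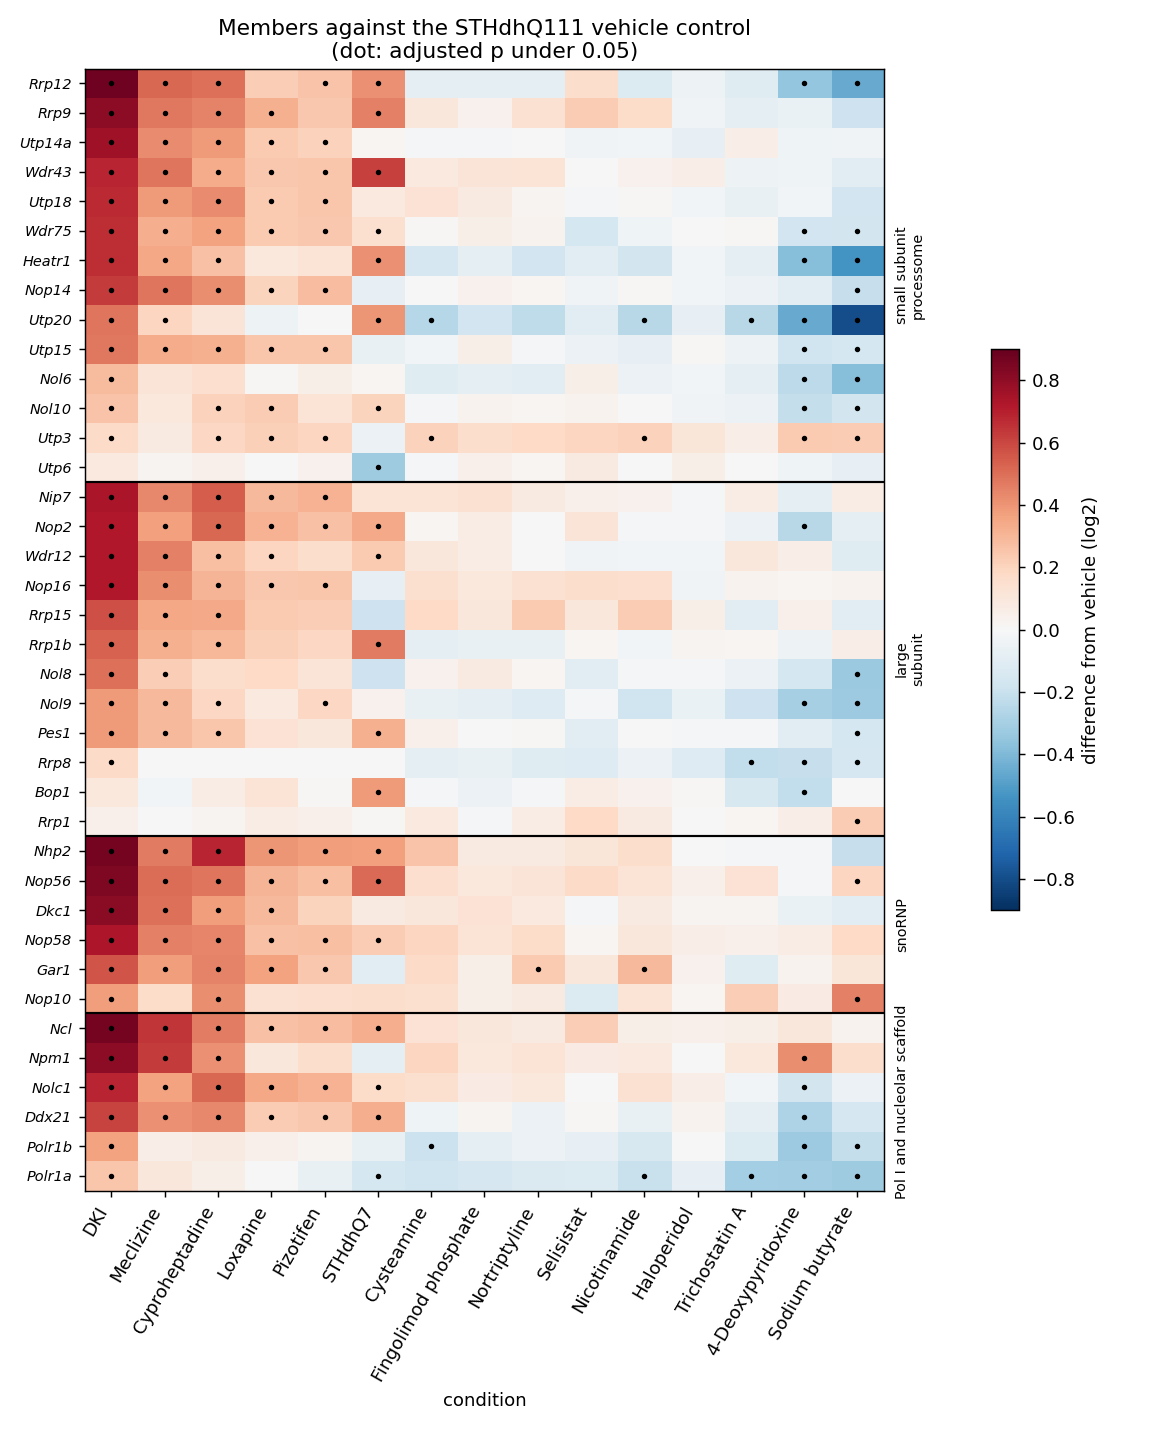
Log2 differences of the 38 members (rows, grouped by role and ordered by DKI) from the STHdhQ111 vehicle control in 15 conditions (columns, ordered by the mean over members). Colours run from -0.9 to 0.9, and a dot marks a called gene: the 5 columns on the left hold called genes with positive differences only, and the 2 on the right hold 29 of 35 called genes below 0.

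**Figure D2:**
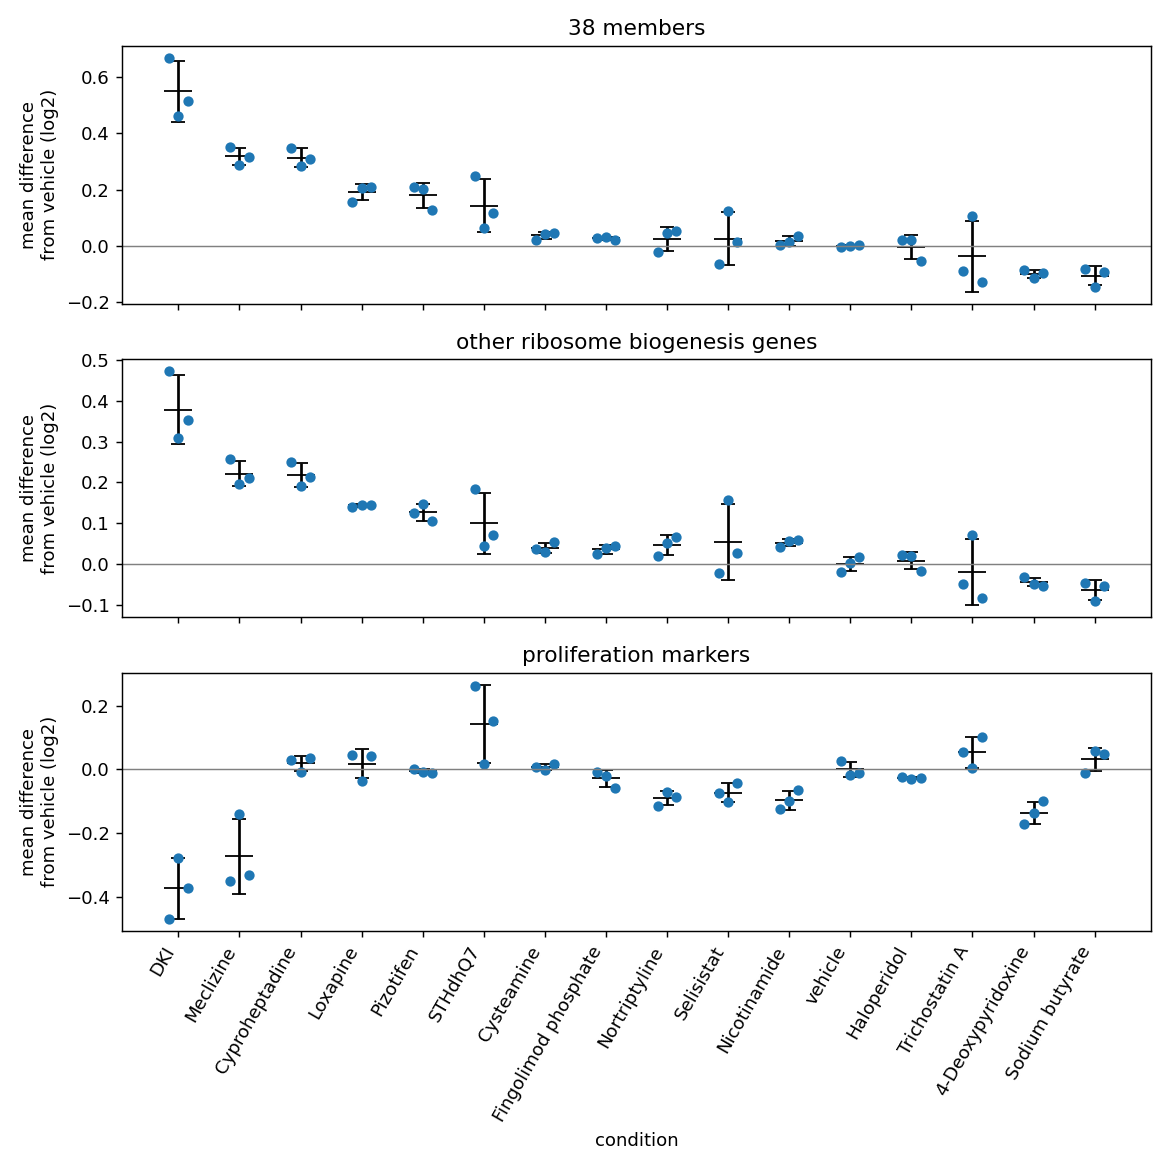
Mean log2 difference from the vehicle mean in each of the 48 samples, over the 38 members (top), 122 other genes of the pathway (middle) and 10 proliferation markers (bottom). Points are samples and bars are the mean ± SD (n = 3): members are highest in DKI, with samples from 0.46 to 0.67, while proliferation markers are below the vehicle in DKI and meclizine and near it in cyproheptadine, loxapine and pizotifen.

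DKI, an inhibitor of diacylglycerol kinase, gave the largest differences. Of the 38 members, 35 rose and 0 fell, with a median difference of 0.62, beside -0.0058 for all genes tested. Across all genes, 20.4% were called higher and 21.9% lower. By role, 13 of 14 small subunit processome members rose, as did 10 of 12 large subunit members, 6 of 6 snoRNP members and 6 of 6 polymerase and scaffold members, with medians of 0.65, 0.51, 0.77 and 0.64. The members that were not called were Utp6, Rrp1 and Bop1.

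Rrp12 lay at 8.74, 8.69 and 8.69 in the 3 vehicle samples and at 9.78, 9.38 and 9.59 in the 3 DKI samples. No DKI sample overlapped the control, and the difference was 0.88 (SE 0.094). Ncl, nucleolin, an abundant RNA-binding scaffold of the nucleolus, lay at 12.73, 12.62 and 12.60 with vehicle and at 13.66, 13.40 and 13.48 with DKI. Again the samples were fully apart, with a difference of 0.86 (SE 0.086), a 1.82-fold higher level.

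Among the other genes named in every condition, Nop56, a core protein of the C/D snoRNPs that guide ribose methylation, rose by 0.84 (SE 0.071) in DKI. Dkc1, the pseudouridine synthase of the H/ACA snoRNPs, rose by 0.81 (SE 0.078), and Npm1, nucleophosmin, rose by 0.80 (SE 0.10). The catalytic core subunits of RNA polymerase I differed less. Polr1a lay at 10.46, 10.40 and 10.38 with vehicle and 10.71, 10.61 and 10.66 with DKI, a rise of 0.25 (SE 0.061), and Polr1b rose by 0.36 (SE 0.062). Bop1, which forms the PeBoW complex of large subunit processing with the members Pes1 and Wdr12, differed by 0.093 (95% interval -0.044 to 0.23), whereas its partners Pes1 and Wdr12 rose by 0.39 and 0.72. Rrp1 differed by 0.044 (95% interval -0.10 to 0.18).

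With meclizine, an antihistamine, 28 of 38 members rose and 0 fell, with a median of 0.35. Across all genes, 13.1% were called higher and 13.6% lower. Ncl lay at 13.36, 13.18 and 13.33 in the 3 samples and rose by 0.64 (SE 0.085), and Npm1 lay at 13.70, 13.53 and 13.69, beside 12.94, 13.05 and 13.06 with vehicle, and rose by 0.63 (SE 0.10). These 2 scaffold proteins were the members with the largest rise in meclizine. Nop56 and Dkc1 each rose by 0.50 (SE 0.07 and 0.078), and Rrp12 rose by 0.52 (SE 0.093). Polr1a and Polr1b differed by 0.10 (95% interval -0.023 to 0.22) and 0.06 (95% interval -0.064 to 0.18), and Bop1 by -0.023, none of them called.

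The tricyclic compounds cyproheptadine, loxapine and pizotifen, which the study placed in its Group A, were each compared with the vehicle control. In cyproheptadine 29 members rose and 0 fell, with a median of 0.34, where 17.5% of all genes were called higher and 18.2% lower. In loxapine 21 rose and 0 fell, with a median of 0.22, where 10.1% of all genes were called higher and 11.8% lower. In pizotifen 19 rose and 0 fell, with a median of 0.20, where 8.86% of all genes were called higher and 9.07% lower. The last 2 counts depended on single samples. Without replicate 3 of loxapine 11 members were called in loxapine, and in pizotifen 9 were called without vehicle replicate 1 or pizotifen replicate 1 and 11 without vehicle replicate 2 or pizotifen replicate 2.

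Nhp2, a core protein of the H/ACA snoRNPs, led in all 3. It lay at 8.75, 8.85 and 8.94 in the vehicle samples, 9.55, 9.44 and 9.62 in cyproheptadine, 9.20, 9.28 and 9.27 in loxapine and 9.28, 9.25 and 9.13 in pizotifen. Every treated sample lay above every vehicle sample, with differences of 0.69, 0.40 and 0.37 (SE 0.094, 0.093 and 0.093). The next largest rise was that of Nip7, a large subunit factor, in cyproheptadine (0.54, SE 0.10), of Gar1, another H/ACA core protein, in loxapine (0.36, SE 0.068) and of Nolc1, a chaperone of snoRNPs, in pizotifen (0.31, SE 0.061).

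The genes named in every condition did not move alike in these compounds. Ncl rose by 0.46, 0.27 and 0.28 in cyproheptadine, loxapine and pizotifen, and Nop56 rose by 0.48, 0.30 and 0.27. Npm1 rose by 0.41 in cyproheptadine but differed by 0.10 and 0.16 in the other two, not called. Dkc1 rose by 0.37 and 0.29 in cyproheptadine and loxapine and differed by 0.20 in pizotifen, not called. Rrp12 rose by 0.50 in cyproheptadine and 0.26 in pizotifen and differed by 0.22 in loxapine, not called. Polr1a, Polr1b, Bop1 and Rrp1 were not called in any of the 3, with differences from -0.065 to 0.12.

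**Figure D3:**
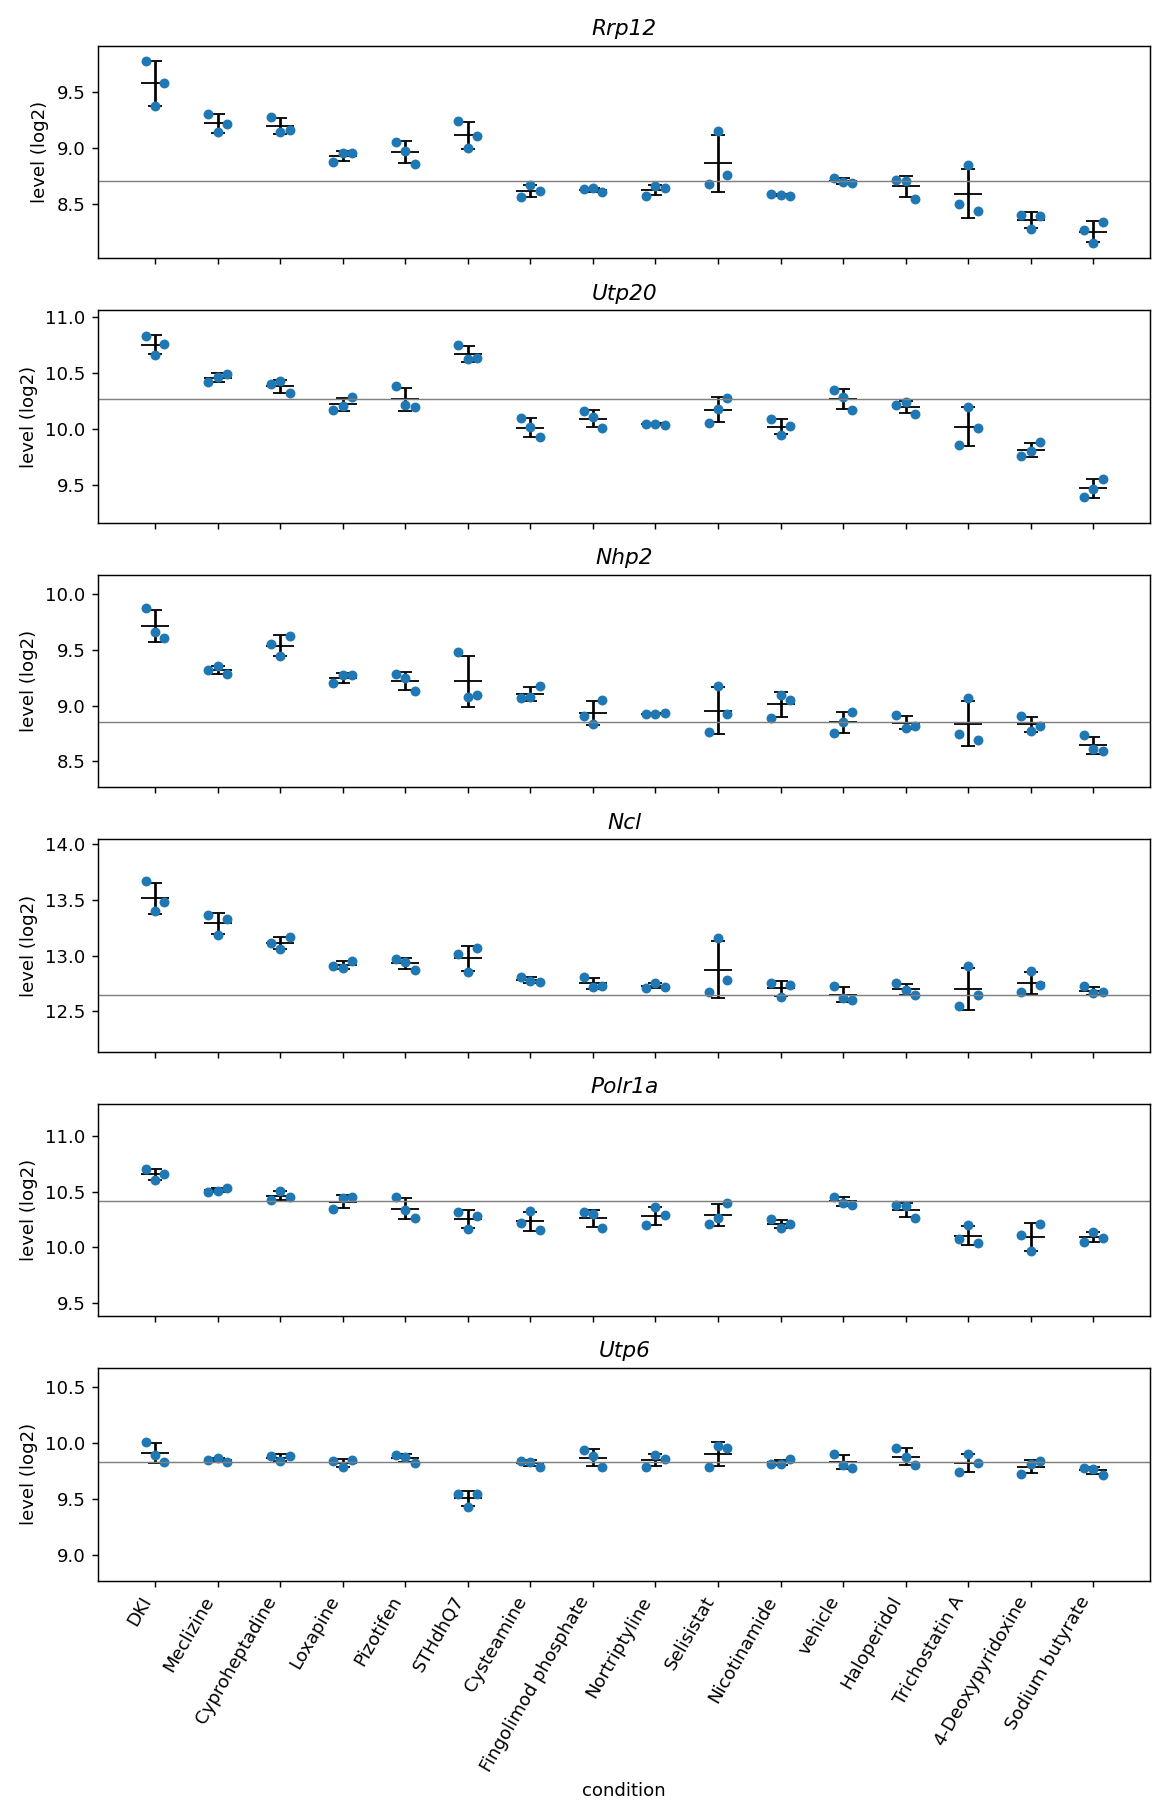
Log2 level of 6 members in each of the 48 samples, by condition, ordered by the mean over members. Points are samples, bars are the mean ± SD (n = 3) and the grey line is the vehicle mean: Rrp12, Nhp2 and Ncl are highest in DKI, Utp20 is lowest in sodium butyrate, Polr1a stays near the vehicle in cyproheptadine and loxapine, and Utp6 is lowest in STHdhQ7 cells.

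The vehicle control was collected at other times of the collection days than most compounds, and 2 pairs of conditions at nanomolar doses allow a comparison within the same days and times. Fingolimod phosphate and haloperidol were collected with meclizine, pizotifen and trichostatin A, and nicotinamide and nortriptyline with loxapine, 4-deoxypyridoxine, sodium butyrate and cysteamine. Against the mean of these treated conditions in place of the vehicle, 29 members rose in meclizine and 0 fell (14.8% and 14% of all genes), 17 rose in pizotifen and 0 fell (9.34% and 7.93%), and 23 rose in loxapine and 0 fell (11.9% and 10.9%). The medians were 0.34, 0.18 and 0.19. With replicate 2 of haloperidol left out of the reference, 30 rose in meclizine and 15 in pizotifen, and 0 fell. The called members changed in part with the reference. Of those called against the vehicle, 27 of 28 in meclizine, 16 of 19 in pizotifen and 15 of 21 in loxapine were called here too. Polr1a in loxapine went from -0.0012 against vehicle to 0.16 (SE 0.052), called higher, and Polr1a in meclizine from 0.10 to 0.21, called higher. Gar1 in loxapine went from 0.36 to 0.095 and was no longer called. DKI and cyproheptadine have no such pair, so their counts were not compared in this way. Neither has a sample of collection day 1, on which vehicle replicate 1 was collected.

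**Figure D4:**
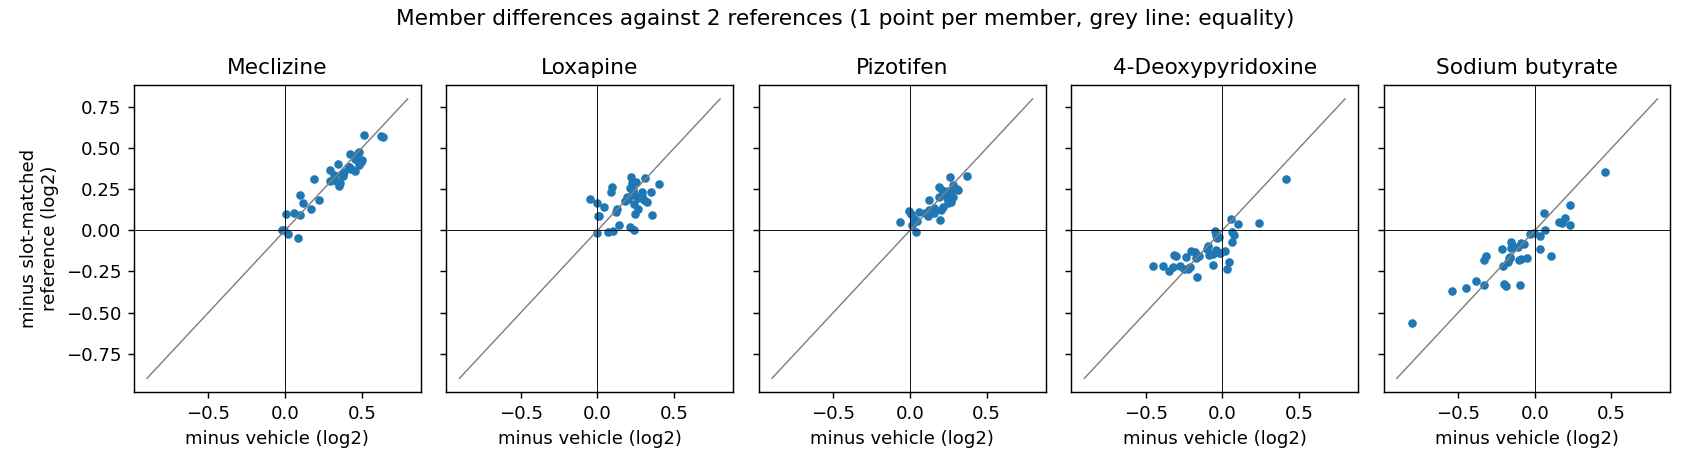
Log2 differences of the 38 members from the vehicle control (x axis) and from the conditions collected at the same days and times (y axis), in 5 compounds, with 1 point per member and the grey line marking equality. Meclizine and pizotifen lie near the line, loxapine lies above 0 on both axes for most members, and the lowest point in 4-deoxypyridoxine and in sodium butyrate, Utp20, moves toward 0 against the second reference.

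The study placed DKI and meclizine in its Group B, and a comparison of the means of both groups does not involve the vehicle control. In Group A relative to Group B, 31 members were lower and 0 higher, with a median of -0.20, where 21.4% of all genes were called lower and 19.9% higher. The 9 samples of Group A and the 6 of Group B were fully apart for 3 members, Heatr1, Nop56 and Ncl, beside 10.6% of all genes tested. By role, 11 of 14 small subunit, 9 of 12 large subunit, 5 of 6 snoRNP and 6 of 6 polymerase and scaffold members were lower. The groups were not apart compound by compound. The mean over the members was 0.32 above vehicle in meclizine of Group B and 0.31 in cyproheptadine of Group A. It was 0.55 in DKI, 0.19 in loxapine and 0.18 in pizotifen.

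Npm1 and Ncl were lowest in Group A relative to Group B, with differences of -0.49 (SE 0.067) and -0.42 (SE 0.055), followed by Wdr12 with -0.38 (SE 0.045). Rrp12, Dkc1 and Nop56 were lower too, with differences of -0.37, -0.37 and -0.32. Bop1 and Rrp1 differed by 0.031 and 0.025, the latter with a 95% interval of -0.064 to 0.12, and were not called. Group A holds 3 compounds and Group B 2. The SEs and calls rest on the spread between samples of a condition and do not measure the spread between compounds of a group. They therefore hold for the means of these compounds only. Pizotifen was given at 5 μM and the other compounds of both groups at 10 μM, so the means are not of matched doses throughout.

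DKI and meclizine were compared at the same dose of 10 μM, with 1 collection slot of day and time in common. In DKI 18 members were higher and 0 lower than in meclizine, with a median of 0.23, where 4.3% of all genes were called higher and 3.8% lower. Nhp2 lay at 9.87, 9.66 and 9.60 in DKI and at 9.32, 9.35 and 9.28 in meclizine, the largest difference (0.39, SE 0.094), followed by Rrp12 (0.36, SE 0.094). Ncl and Npm1, which led in meclizine, differed by 0.22 (95% interval 0.05 to 0.40) and 0.18 (95% interval -0.035 to 0.39) and were not called. This count depended on single samples. It was 3 without replicate 1 of DKI and 9 without replicate 2 of meclizine, and 0 in a fit of these 6 samples alone.

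Cyproheptadine and loxapine, both tricyclic and both at 10 μM, were compared in the same way. In cyproheptadine 5 members were higher (Npm1, Nhp2, Nop10, the processome protein Nop14 and the RNA helicase Ddx21) and 0 lower, with a median of 0.12. Of all genes, 4.91% were called higher and 5.56% lower. The largest difference was that of Npm1 (0.31, SE 0.10), at 13.58, 13.32 and 13.38 in cyproheptadine and 13.17, 13.03 and 13.14 in loxapine, followed by Nhp2 (0.29, SE 0.094). Dkc1 differed by 0.08 (95% interval -0.079 to 0.24). The compounds share no collection slot of day and time, and with the collection time as a further term 2 members were called. The count fell to 0 or 1 without replicate 1 or 3 of cyproheptadine or any one replicate of loxapine. Pizotifen was given at 5 μM, so its values stand beside these without a comparison.

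**Figure D5:**
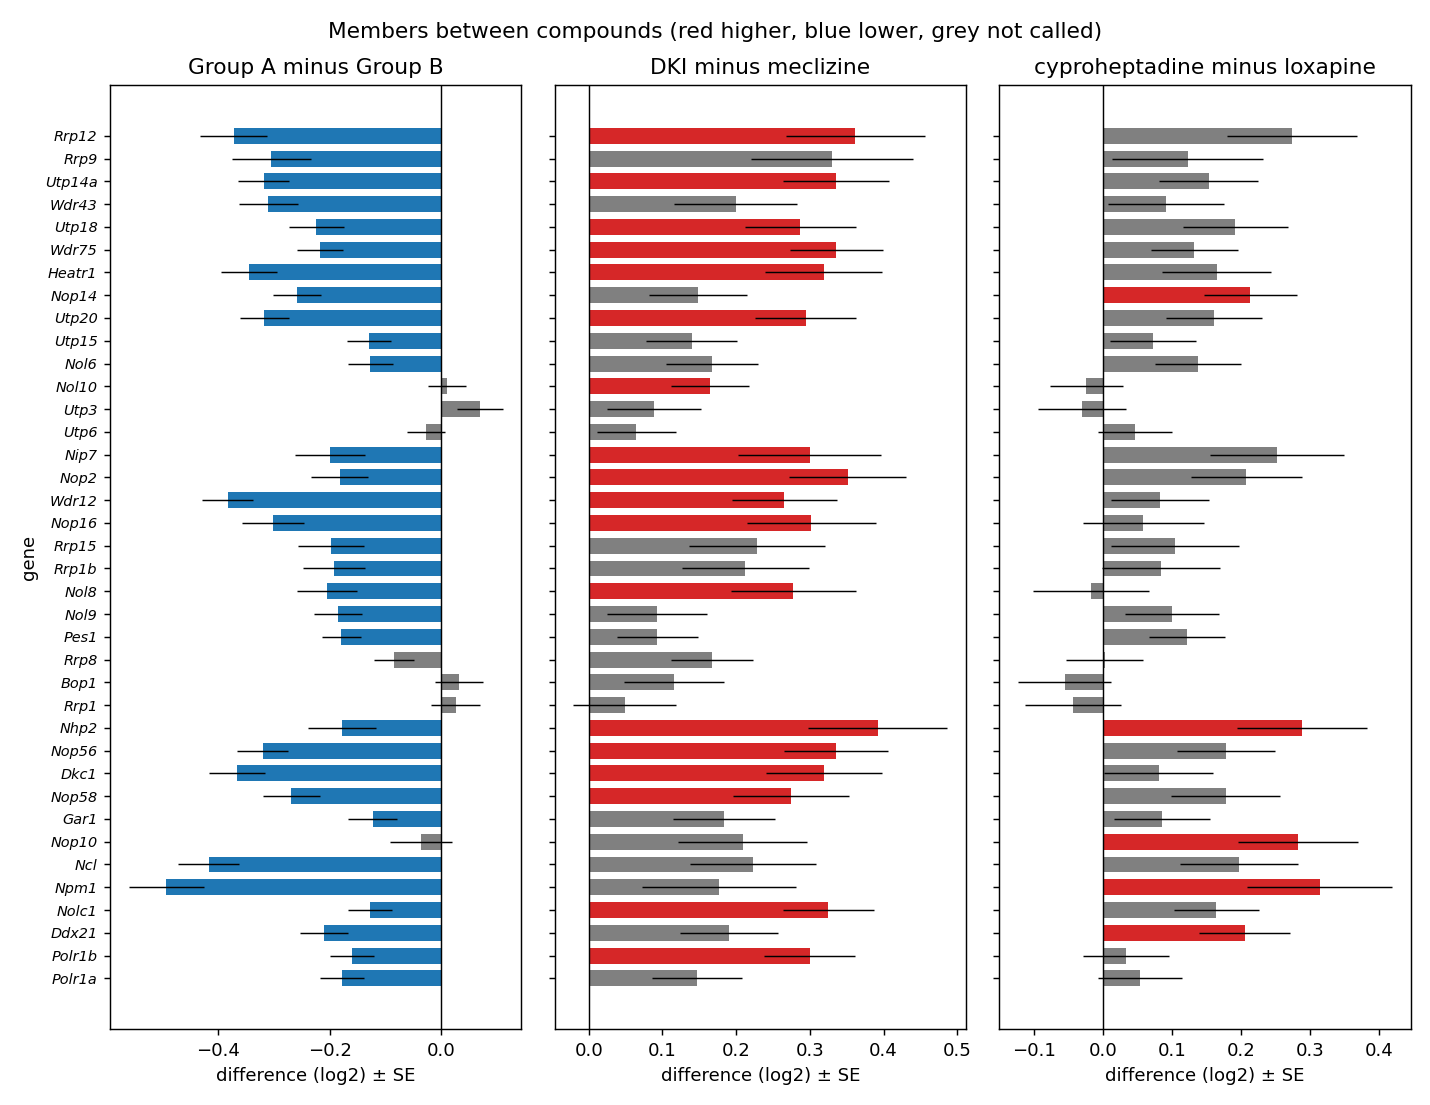
Log2 differences of the 38 members (rows) between Group A and Group B, DKI and meclizine, and cyproheptadine and loxapine, from the fit over all samples. Bars are differences and whiskers 1 SE, red bars are called higher, blue bars called lower and grey bars not called: 31 members are lower in Group A, 18 higher in DKI than in meclizine and 5 higher in cyproheptadine than in loxapine.

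STHdhQ7 cells were compared with STHdhQ111 cells, both with vehicle and collected at the same days and times. Here 18 members were higher in STHdhQ7 cells and 2 lower, with a median of 0.14, where 29.2% of all genes were called higher and 26.6% lower. Replicate 1 of STHdhQ7 stood highest in the average over the members, at 0.25 beside 0.064 and 0.12, and without it 14 were higher and 4 lower. Without replicate 2 of STHdhQ7 or replicate 1 of the vehicle, 1 was lower. Wdr43, a small subunit processome protein, lay at 10.08, 9.73 and 9.71 in STHdhQ7 and at 9.22, 9.24 and 9.21 in STHdhQ111 cells. The samples were fully apart and the difference was 0.61 (SE 0.083). Nop56 followed with 0.51 (SE 0.07), from 10.25, 10.36 and 10.29 in STHdhQ111 to 10.97, 10.78 and 10.68 in STHdhQ7 cells.

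Utp6, another processome protein, lay at 9.54, 9.43 and 9.55 in STHdhQ7 and 9.90, 9.81 and 9.78 in STHdhQ111 cells, a difference of -0.32 (SE 0.053). Utp6 was called in none of the compounds, where its differences from vehicle ran from -0.071 to 0.087. Polr1a was lower too, with a difference of -0.16 (SE 0.06). Bop1 and Pes1 of the PeBoW complex were higher in STHdhQ7 cells by 0.38 (SE 0.067) and 0.32 (SE 0.055). Ncl was higher by 0.33 (SE 0.085) and Rrp12 by 0.41 (SE 0.093), whereas Npm1 and Dkc1 differed by -0.086 and 0.08, not called. Nes and Sox2 differ between the lines as given above, and what sets the lines apart beside huntingtin was not tested.

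Sodium butyrate, an inhibitor of histone deacetylases at millimolar doses, and 4-deoxypyridoxine, an antagonist of vitamin B6, were the compounds in which the most members fell. In sodium butyrate 14 fell and 4 rose, with a median of -0.11, where 17.8% of all genes were called lower and 19.6% higher. In 4-deoxypyridoxine 15 fell and 2 rose, with a median of -0.075, where 11.2% of all genes were called lower and 8.93% higher. Without replicate 2 of sodium butyrate, 9 fell and 5 rose in sodium butyrate, and in a fit of the compared samples alone 9 fell and 4 rose. Without replicate 2 of 4-deoxypyridoxine, 8 were called, all lower. By role, 8 and 7 of the 14 small subunit processome members fell in sodium butyrate and 4-deoxypyridoxine, and 4 of the 12 large subunit members fell in each. No snoRNP member fell in either against the vehicle.

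Utp20, one of the longest proteins of the processome, fell most in both. It lay at 10.35, 10.28 and 10.17 with vehicle, at 9.39, 9.46 and 9.55 with sodium butyrate and at 9.75, 9.80 and 9.88 with 4-deoxypyridoxine. All 3 conditions were fully apart, with differences from vehicle of -0.80 (SE 0.068) and -0.46 (SE 0.068). Heatr1, a processome protein also needed for transcription by RNA polymerase I, followed with -0.54 (SE 0.078) and -0.39 (SE 0.078). Polr1a differed by -0.32 and -0.32, and Polr1b by -0.21 and -0.32, called lower in each. Against nicotinamide and nortriptyline, which were collected at the same days and times, Polr1a stood at -0.16 and -0.15 and Polr1b at -0.11 and -0.22, and Polr1a in 4-deoxypyridoxine and Polr1b in sodium butyrate were no longer called.

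Other members rose. Nop10, the small H/ACA core protein, lay at 8.26, 8.41 and 8.57 with vehicle and at 8.95, 8.84 and 8.81 with sodium butyrate, a rise of 0.46 (SE 0.086). Rrp1 rose by 0.23 (SE 0.069) in sodium butyrate, the only comparison with vehicle in which it was called. Npm1 lay at 13.28, 13.63 and 13.38 with 4-deoxypyridoxine and rose by 0.42 (SE 0.10). Utp3 rose by 0.23 and 0.24 (SE 0.063 for both).

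Over all members, against nicotinamide and nortriptyline, 18 members fell and 2 rose in sodium butyrate (13.8% and 17% of all genes), with a median of -0.13, and 12 fell and 1 rose in 4-deoxypyridoxine (5.08% and 5.48%), with a median of -0.14. Of those called against the vehicle, 13 of 18 in sodium butyrate and 12 of 17 in 4-deoxypyridoxine were called here too. Several values lay closer to 0. Utp20 went to -0.56 (SE 0.059) in sodium butyrate and to -0.22 (SE 0.059) in 4-deoxypyridoxine, and Utp3 to 0.035 and 0.044, no longer called. Gar1 was called lower here in both, at -0.16 and -0.23. Npm1 in 4-deoxypyridoxine stood at 0.31 (SE 0.089) and Nop10 in sodium butyrate at 0.35 (SE 0.075).

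In the 7 other compounds few members were called, and no count stood clearly above the share of all genes. Trichostatin A, another histone deacetylase inhibitor, was given here at a nanomolar dose, and Polr1a, Utp20 and Rrp8 fell, 3 members in all, where 13.1% of all genes were called in either direction. Polr1a lay at 10.08, 10.20 and 10.04 in trichostatin A and differed by -0.31 (SE 0.06), and Utp20 and Rrp8, a large subunit member, by -0.25 and -0.22. The count was 1 without trichostatin A replicate 1 and 5 without vehicle replicate 3. Sodium butyrate and trichostatin A differ in dose and in collection time, so their values only stand side by side.

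In nicotinamide 4 members were called where 10.4% of all genes were, in cysteamine 3 where 7.83% were, and in nortriptyline 1 where 3.83% were. These counts are near the shares of all genes, so they show nothing particular to the members. Gar1 differed by 0.29 in nicotinamide and 0.24 in nortriptyline, Utp3 by 0.21 in nicotinamide and 0.20 in cysteamine, and Utp20 by -0.25 in nicotinamide and -0.26 in cysteamine, all called. Polr1a differed by -0.20 in nicotinamide, and Polr1b by -0.20 in cysteamine, also called. These 3 compounds share their collection days and times with each other and not with the vehicle. The counts went to 0 without vehicle replicate 1 in all 3 compounds, to 0 or 1 without vehicle replicate 2, and to 2 in nortriptyline without vehicle replicate 3. They also went to 0 without nicotinamide replicate 2, without nortriptyline replicate 2 or 3 and without cysteamine replicate 3, and to 1 without cysteamine replicate 1.

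Against the conditions collected at the same days and times, 0 and 0 members were called higher and lower in cysteamine (0.082% and 0.0373% of all genes), and 0 and 1 in trichostatin A (8.08% and 6.32%), or 0 and 2 with replicate 2 of haloperidol left out of the reference. In selisistat, fingolimod phosphate and haloperidol limma called 0 members, where 0.515%, 0.0597% and 0% of all genes were called. At an unadjusted p under 0.05 there were 8, 3 and 1 members (21.1%, 7.89% and 2.63%), beside 17.2%, 10.5% and 2.96% of all genes. Without selisistat replicate 1 there were 3 called members in selisistat, where 2.19% of all genes were called, and without replicate 3 there were 2, where 8.58% were.

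Fbl, the methyltransferase of the C/D snoRNPs, has a row with a joint name, so that its reads and those of the second locus may not be separate. It averaged 9.03 ± 0.050 in the vehicle control, 9.72 ± 0.18 in DKI, 9.46 ± 0.089 in cyproheptadine, 9.43 ± 0.18 in meclizine and 9.34 ± 0.099 in STHdhQ7 cells (SD, n = 3). The row was called higher in these 4 conditions, with differences of 0.69, 0.43, 0.40 and 0.31, and lower in Group A than in Group B, with a difference of -0.28.

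The 122 other genes of the pathway, on 4 lists of factors that are not members, were counted in the same comparisons. These lists were written with earlier results of these data known, so their counts and adjusted p-values are descriptions and no independent test. Shares in brackets are those of all genes tested, in the same order. In DKI 102 were higher and 0 lower (20.4% and 21.9%), and in meclizine 71 and 0 (13.1% and 13.6%). In cyproheptadine the counts were 80 and 1 (17.5% and 18.2%), in loxapine 33 and 1 (10.1% and 11.8%), and in pizotifen 28 and 0 (8.86% and 9.07%). Their medians were 0.37, 0.21, 0.22, 0.15 and 0.13, each closer to 0 than that of the members. In STHdhQ7 cells 39 were higher and 9 lower (29.2% and 26.6%), so the higher count was near the share of all genes. The counts were 6 higher and 35 lower in sodium butyrate (19.6% and 17.8%), and 7 and 22 in 4-deoxypyridoxine (8.93% and 11.2%). In Group A relative to Group B 65 were lower and 1 higher (21.4% and 19.9%).

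By list, 39 of 46 other large subunit factors, 35 of 40 other small subunit factors, 19 of 23 snoRNP assembly, nucleolar and exosome factors and 9 of 13 other polymerase I subunits and factors rose in DKI. The genes with the largest rise in each of the 5 compounds were Gnl3, nucleostemin, and Ppan, a large subunit factor. Gnl3 rose by 0.96 in DKI, 0.69 in meclizine, 0.67 in cyproheptadine, 0.42 in loxapine and 0.43 in pizotifen (limma adjusted p = 5.47e-12, 3.78e-08, 5.85e-08, 0.000242 and 0.000223). Ppan rose by 0.96, 0.64, 0.69, 0.53 and 0.39 in the same order. Both genes were named for the size of their rise in these data, so the p-values test nothing further. Ubtf, which binds the ribosomal RNA genes for polymerase I, fell by 0.21 in cyproheptadine (SE 0.067, limma adjusted p = 0.014) and by 0.19 in loxapine (SE 0.066, limma adjusted p = 0.0319).

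In STHdhQ7 cells Tbl3, a processome protein, and Ppan were the other pathway genes highest above STHdhQ111 cells, by 0.56 (SE 0.06) and 0.54 (SE 0.087). Emg1, a methyltransferase of the small subunit, and Nol12 were lowest, with differences of -0.31 and -0.27. Mdn1, the large ATPase that remodels large subunit precursors, fell most in sodium butyrate and in 4-deoxypyridoxine, with differences of -0.48 (SE 0.091) and -0.46 (SE 0.091). Next were Pwp2 in sodium butyrate (-0.46) and Noc3l in 4-deoxypyridoxine (-0.38). The largest rises were those of Polr1d and Utp11l in sodium butyrate, 0.26 and 0.25, and of Gltscr2 and Taf1b in 4-deoxypyridoxine, 0.32 and 0.24. Between the groups, Tma16 and Mybbp1a were lowest in Group A relative to Group B, with differences of -0.45 and -0.41. Mphosph6, an exosome-associated protein, was higher by 0.14.

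Myc itself lay at 8.57, 8.80 and 8.65 in the vehicle samples, 10.34, 9.85 and 10.08 in DKI, 9.76, 9.63 and 9.67 in meclizine, 9.36, 9.42 and 9.36 in cyproheptadine, 9.08, 9.30 and 9.22 in loxapine and 8.89, 9.15 and 9.04 in pizotifen. Every sample of these 5 compounds lay above every vehicle sample. The differences were 1.42, 1.01, 0.70, 0.52 and 0.35, with limma adjusted p = 1.96e-12, 1.56e-08, 9.18e-06, 0.00103 and 0.028. The list that holds Myc was also written with earlier results known, so these p-values are descriptions too. Pizotifen lost its call without vehicle replicate 1 or 3 or pizotifen replicate 2 or 3, with an adjusted p up to 0.141. Myc was lower in Group A than in Group B (difference -0.69, SE 0.074, limma adjusted p = 1.15e-09). In STHdhQ7 cells, sodium butyrate and 4-deoxypyridoxine it differed by 0.23, 0.18 and -0.19, not called.

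Of the other genes of the MYC, MAX and MXD network, the repressors Mxd3 and Mxd4 fell most in DKI, with differences of -0.95 (SE 0.11) and -0.70 (SE 0.082). Mxd4 also fell in the other 4 compounds, by 0.38 in meclizine, 0.36 in cyproheptadine, 0.33 in loxapine and 0.23 in pizotifen. Mxd3 averaged 7.31 with vehicle, 6.76 in meclizine, 6.98 in cyproheptadine, 7.04 in loxapine and 7.04 in pizotifen. Other genes of this list did not all move the same way in DKI. Mxd1 averaged 7.03 beside 7.49 with vehicle, Mnt 9.03 beside 9.01, Mxi1 8.54 beside 8.55 and Mga 9.84 beside 9.67. Of the 11 genes tested on this list, 5 rose and 3 fell in DKI (20.4% and 21.9% of all genes). The joint change of these genes and of the members is a description, and no relation between them was tested.

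Proliferation markers were counted in the same comparisons. In DKI 7 of 10 fell and 1 rose (21.9% and 20.4% of all genes), with a median of -0.46. In meclizine 7 fell and 1 rose (13.6% and 13.1%), with a median of -0.36. In cyproheptadine 1 fell and 0 rose (18.2% and 17.5%). In loxapine (11.8% and 10.1%) and pizotifen (9.07% and 8.86%) limma called none, with 0 of 10. In Group A relative to Group B 8 were higher and 1 lower (19.9% and 21.4%). Mki67, a marker of cycling cells, fell by 0.85 in DKI (SE 0.11) and by 0.58 in meclizine (SE 0.11), and differed by -0.18, -0.088 and -0.12 in cyproheptadine, loxapine and pizotifen. Mcm2, a replication licensing factor, rose by 0.25 in DKI and 0.12 in meclizine. In STHdhQ7 cells 6 of the markers were higher and 1 lower (29.2% and 26.6%), and in 4-deoxypyridoxine 4 fell and 0 rose (11.2% and 8.93%). The part of the cell cycle in the members' values was not tested.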

How the data were processed

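Expression was measured by RNA-Seq in 48 samples. The authors prepared stranded poly(A) libraries, sequenced single-end reads, trimmed them with Trimmomatic 0.36, quantified them against the GRCm38 transcriptome with RSEM and tested them with DESeq2, and deposited 1 table of normalized abundances. The deposited values were read as log2 values, because they run from -2.34 to 18.62. The transformation is not named, and low values hardly vary, as in a regularized logarithm. Read counts were not used here, so the sequencing depth of the samples is unknown and neither intervals for counting error nor count models could be had.

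The members and all gene lists were chosen with earlier results of these data known. Genes with a symbol and a mean of at least 1 were tested, 13409 in all. With limma 3.58.1 in R 4.3.3, 1 mean for each of the 16 conditions and a term for the collection day were fitted per gene, with variances moderated along a trend on abundance and 30 residual degrees of freedom. Two-sided p-values of each of 18 comparisons were adjusted separately (Benjamini-Hochberg). Named members are those with the 2 largest rises and falls among called members on 1 side of the reference mean in every replicate of a comparison, those with the widest and the narrowest range, and Polr1a, Polr1b, Fbl, Ncl, Npm1, Nop56, Dkc1 and Bop1. Other lists give their largest rises and falls. Names outside this rule (Pes1, Wdr12, Nop14, Ddx21, Rrp8) were chosen after their values were seen. Groups, doses, days and times came from the labels. Positions, overlaps and matching stretches came from GENCODE annotation and transcripts of GRCm38 (blastn 2.17.0), promoters from RefSeq. The steps were tested on simulated data. Plots used matplotlib 3.10.9 (Python 3.11.15).

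Alternatives were other minimum means, no collection day, a replicate block, the collection time, no trend, rescaling, only the compared samples, conditions of the same collection slots as the reference, and leaving out each sample. The same-slot reference without replicate 2 of haloperidol was added after seeing the data. Replicate numbers equal the collection day in the labels except replicate 1 of cyproheptadine and DKI. After removal of condition means, samples of the same day had a mean correlation of -0.055 across genes and those of other days 0.028.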

Additional observations from a re-analysis of the deposited data

Results flagged for a closer look

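The median difference of the members between Group A and Group B was -0.20, and 31 members were called in the direct comparison of the groups, all lower in Group A. It is listed because the group means differed. Single compounds of the groups did not all differ, since the mean over the members was 0.32 in meclizine and 0.31 in cyproheptadine. DKI stood higher at 0.55, and loxapine and pizotifen lower at 0.19 and 0.18. Dixon's gap test was run on the pooled samples of Group A (n = 9) and of Group B (n = 6). It marked no sample in the mean over the members or in the members named with values for this comparison. The compounds of a group differ in level, so the test could miss a sample apart from its own compound. DKI replicate 1 was the highest of Group B, at 0.67 beside 0.52 for the next sample. Without it 26 members were called between the groups.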

How the results depend on the processing

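Of the values of named genes under all alternatives, 2943 kept their direction and side of the threshold, 107 lost and 20 gained it, and 1 reversed: Polr1a in loxapine was 0.16 against nicotinamide and nortriptyline of the same collection slots. Of the counts of called members, 137 of 154 stayed within 1.5 times under the alternatives other than leaving out a sample of the compared groups. The others were nortriptyline (0 with no minimum mean, with the collection time or with only the compared samples, and 2 with a minimum mean of 6, no collection day, the replicate block or rescaling), cyproheptadine against loxapine (2 with no minimum mean or the collection time, 0 with only the compared samples), cysteamine (1 with the collection time, 6 with only the compared samples, 0 with the slot-matched reference), trichostatin A (1 with only the compared samples and 1 with the slot-matched reference), and, with only the compared samples, fingolimod phosphate (3) and DKI against meclizine (0). The cause was not tested.

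With each sample left out in turn, the counts ran from 9 to 16 in pizotifen, 11 to 18 in loxapine, 8 to 15 in 4-deoxypyridoxine, 0 to 4 in nicotinamide, 0 to 2 in nortriptyline, 0 to 4 in cysteamine, 1 to 5 in trichostatin A, 0 to 3 in selisistat, 3 to 26 between DKI and meclizine and 0 to 4 between cyproheptadine and loxapine. The total stayed within 1.5 times elsewhere, at 33 to 35 in DKI, 26 to 27 in meclizine, 25 to 29 in cyproheptadine, 17 to 21 in STHdhQ7 cells, 13 to 17 in sodium butyrate, 0 in fingolimod phosphate and haloperidol and 26 to 32 between Groups A and B. The replicate number marks the collection day for most samples, and the replicate block moved no other count past 1.5 times than that of nortriptyline. Sequencing depth is unknown, so no limit set by depth could be given.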
